A study of Mus musculus with 8 samples.

Results

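The genes of cholesterol and fatty acid synthesis were examined in the auditory nerve of mice at postnatal day 21. The set holds 35 genes, taken by symbol from a list of the enzymes and regulators of both pathways, and all 35 were found among the 15035 genes of the table. It has 18 sterol enzymes, 6 genes that control or sense the pathway through the sterol regulatory element binding proteins (SREBPs), and 11 genes of fatty acid synthesis, desaturation and elongation. Bulk RNA sequencing covered 4 wild-type mice (libraries 1 to 4) and 4 mice labelled heterozygous for Mef2c, a transcription factor gene (libraries 5 to 8). The labels name no treatment, and both groups were of the same age. The sources used here do not give the strain, the sex or the kind of Mef2c allele. Each library came from the pooled nerves of both cochleas of a single mouse, so the p-values measure the spread between mice.

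Cholesterol is built from acetyl-CoA through mevalonate, isoprenoid units, squalene and lanosterol, and fatty acids are built from the same acetyl-CoA through malonyl-CoA. Myelin is unusually rich in cholesterol and in long-chain lipids, and the glia that make it synthesise most of their sterol themselves. When sterol in the endoplasmic reticulum is low, Scap escorts the SREBPs to the Golgi for cleavage and the released fragments switch on both pathways, whereas the Insig proteins hold the complex back.

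Estimated depth was 13363262 to 21507345 reads per library, and 3 reads correspond to 2.37 to 3.89 normalized counts. Values are normalized counts, that is, reads divided by a size factor per library, as the authors deposited them. The targeted gene goes against the label: Mef2c had 402.2 to 508.7 normalized counts in wild type and 583.3 to 735.1 in the libraries labelled heterozygote, and every direction below is between libraries as labelled. The deposited values are per gene, so the targeted exon was not analysed here. Wild-type library 1 and heterozygote-labelled library 5 had 12 and 7.6 normalized counts of Xist, the RNA of the inactive X chromosome, against 5175.3 to 8615.3 in the others, so each group held 1 library low in this RNA. The nerve was recognisable in every library, with 33662 to 42069 normalized counts of Nefl, a neurofilament subunit.

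Most sterol enzymes had lower mean values in the libraries labelled heterozygote, while fatty acid synthesis genes differed less apart from the elongase Elovl1. The median log2 fold changes between the groups were -0.16 for sterol enzymes and -0.01 for fatty acid genes. This contrast was smaller after a correction for transcript length, with medians of -0.18 and -0.16. No member passed a limma-trend Benjamini-Hochberg adjusted p of 0.05, a threshold met by 12 of 14870 tested genes (0.0807%), so the differences below are estimates that did not pass correction. At an unadjusted limma-trend p under 0.05, 7 members were lower and 3 were higher, 20% and 8.57% of the 35. The same shares over all genes tested were 7.34% lower and 6.72% higher. The 7 lower members were Hmgcs1, Pmvk, Fdps, Fdft1, Cyp51, Msmo1 and Elovl1, and the 3 higher members were Hsd17b7, Srebf1 and Srebf2. In the authors' deposited table, the FDR was under 0.05 for 3 members, against 1.61% of all genes with a value: Hmgcs1 (0.00822), Cyp51 (0.00869) and Msmo1 (0.0488). Fewer cells of a type and less RNA per cell cannot be told apart in such bulk samples.

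Of the 18 sterol enzymes, 14 had a negative log2 fold change (the estimate, labelled heterozygote minus wild type), with a median of -0.16 against 0.02 over all genes tested. The range ran from -0.51 for Fdps to 0.54 for Idi1. In 5 sterol enzymes every heterozygote-labelled library lay below every wild-type library, and in none did every such library lie above. Over all genes tested, 3.86% were without overlap in the lower direction and 3.4% in the higher, 7.26% in all. The normalized counts of the 18 enzymes summed to 21555.3 to 23369.5 in wild type and 18338.2 to 19609.0 in the libraries labelled heterozygote, and Hmgcs1 carried the largest share of each sum. Markers of oligodendrocytes, the myelinating glia of the central part of the nerve, summed to 215838 to 287265 and 112965 to 148397, and their part in the sterol result was not tested.

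**Figure D1:**
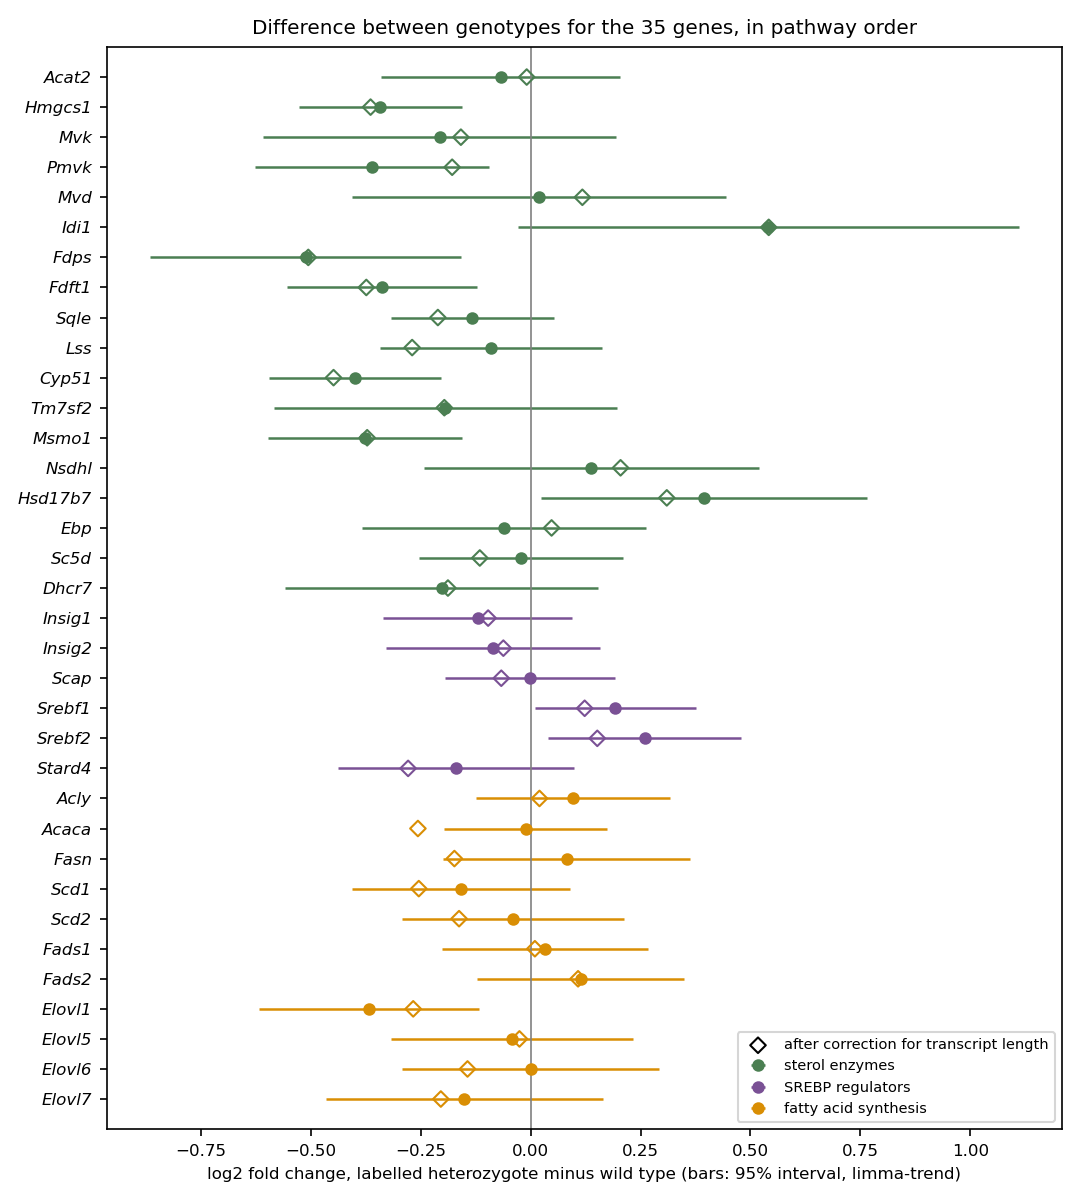
Log2 fold change (labelled heterozygote minus wild type) of each of the 35 genes in pathway order, with bars for the 95% limma-trend interval and open diamonds for the estimate after correction for transcript length. Of the sterol enzymes, 6 have intervals wholly below 0, among them Fdps at -0.51 and Cyp51 at -0.40, and the fatty acid genes other than Elovl1 have intervals that include 0.

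Hmgcs1, cytosolic hydroxymethylglutaryl-CoA synthase, commits acetyl units to the mevalonate route (mm10 chr13:119690379-119708260, plus strand). Libraries 1 to 4, of wild type, gave 7498.6, 8055.1, 7602.5 and 7482.4 normalized counts in turn. Libraries 5 to 8, labelled heterozygote, gave 5947.0, 5542.4, 6388.3 and 6320.2, and each gene below follows the same order. All 4 lay well below the lowest wild-type library. The means were 7659.65 ± 268.9 and 6049.48 ± 389.8 (SD, n = 4 each), and a two-sided exact permutation test gave p = 0.0286, the lowest possible for 4 against 4. On the log2 scale the estimate was -0.34 (SE 0.08), with an adjusted limma-trend p of 0.211. Its exons share 557 bases with Gm48342 on the opposite strand, and whether the counting used strand is not given in the sources used here.

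SREBPs bind sterol regulatory elements beside CCAAT boxes, where the factor NF-Y sits, so the bases before the start of the members were searched for both. RefSeq (GRCm38.p6, the assembly called mm10) gave promoters for 28 of the 35 members. The motifs were TCACNCCAC, an SRE-like element, and CCAAT, each on both strands in the 250 bases before each start, and no match to one overlapped a match to the other in the members. The Hmgcs1 promoter is shown because this gene was lower in all 4 heterozygote-labelled libraries and was the only member with a TCACNCCAC match. Capitals mark that match and 3 CCAAT boxes, written ATTGG where they lie on the opposite strand, in chr13:119690101-119690350 on the plus strand.
Hmgcs1: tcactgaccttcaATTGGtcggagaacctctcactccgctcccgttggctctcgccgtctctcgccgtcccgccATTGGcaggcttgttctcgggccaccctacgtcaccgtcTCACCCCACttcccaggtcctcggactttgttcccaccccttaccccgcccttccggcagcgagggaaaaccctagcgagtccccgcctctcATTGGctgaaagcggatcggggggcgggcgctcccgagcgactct
Over all 32851 promoters of the table, 1.05% held TCACNCCAC and 33.8% held CCAAT. By gene, CCAAT was found for 14 of 15 sterol enzymes with a promoter, 4 of 5 regulators and 3 of 8 fatty acid genes. The share was 37.5% of all genes and 40% of the tested genes with a promoter. Some genes have more than 1 promoter, and by promoter CCAAT was found in 14 of 18, 5 of 10 and 3 of 9. These are matches of letters, and binding was not measured.

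The steps around Hmgcs1 in the mevalonate route overlapped between the groups. Acat2, the cytosolic thiolase that feeds it, had 827.4 ± 142.5 normalized counts in wild type and 781.2 ± 23.7 in the labelled heterozygotes (SD, n = 4 each), with the groups overlapping. Of the 50-base stretches of its longest transcript, 45.9% also occur in Acat3, so its reads may be split between the genes. Its estimate was -0.07. Mvk, mevalonate kinase, had 450.2 ± 96.4 and 387.4 ± 67.3, an estimate of -0.21 with a 95% interval of -0.61 to 0.19. Mvd, the decarboxylase that makes isopentenyl diphosphate, had 355.9 ± 84.1 and 355.6 ± 53.1, an estimate of 0.02.

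Pmvk, phosphomevalonate kinase, acts between Mvk and Mvd (mm10 chr3:89454541-89469013, plus strand). Its wild-type values were 1031.7, 967.6, 740.6 and 961.4 normalized counts, and those of libraries 5 to 8 were 756.0, 724.0, 734.1 and 648.8. Wild-type library 3 lay within the heterozygote-labelled range and the other 3 above it. The estimate was -0.36 (SE 0.12), its adjusted limma-trend p 0.270 and the two-sided exact permutation p 0.0571. Its transcript, at 1194 bases, is short, and after correction for transcript length the estimate was -0.18 with an unadjusted limma-trend p of 0.0762. Its promoter, shown beside that of Hmgcs1 for comparison, holds a single CCAAT box, in capitals (GRCm38.p6 chr3:89454291-89454540, plus strand).
Pmvk: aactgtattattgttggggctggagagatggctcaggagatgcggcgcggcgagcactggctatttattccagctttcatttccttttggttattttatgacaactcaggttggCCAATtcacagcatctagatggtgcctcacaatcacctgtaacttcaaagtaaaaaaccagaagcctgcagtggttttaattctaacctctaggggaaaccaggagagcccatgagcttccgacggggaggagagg

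Idi1, the isomerase of the isoprenoid units, had the largest positive estimate among the members. It had 165.1 ± 54.2 normalized counts in wild type and 236.0 ± 61.0 in the labelled heterozygotes (SD, n = 4 each). The groups overlapped, and the estimate of 0.54 had a 95% interval from -0.03 to 1.11. It had the lowest wild-type level per length of the 35 members, and 21.3% of its 50-base stretches also occur in Gm13502, so its counts are uncertain.

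Fdps and Fdft1 carry the route into squalene. Fdps, farnesyl diphosphate synthase (mm10 chr3:89093588-89101959, minus strand), had 1763.7, 1186.0, 969.8 and 1392.6 normalized counts in wild type. Libraries 5 to 8 had 943.9, 931.4, 985.7 and 787.6. Wild type was widely spread, with library 1 highest and library 3 below heterozygote-labelled library 7. Its estimate of -0.51 (SE 0.16) was the most negative of the set. Its adjusted limma-trend p was 0.266, and without wild-type library 3 it was 0.0476, the only value under 0.05 for any member in any alternative tried. Leaving out that library also raised the genes called over the whole table from 12 to 221. Of the 50-base stretches of Fdps 11.7% are shared with Gm43738, an overlapping gene on the same strand.

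Fdft1, squalene synthase, makes the first dedicated sterol intermediate (mm10 chr14:63145150-63179578, minus strand). Wild-type values were 1635.3, 1392.7, 1343.5 and 1669.1 normalized counts, against 1145.1, 1172.1, 1203.8 and 1235.9 in libraries 5 to 8. The groups did not overlap, and the heterozygote-labelled libraries were much closer to each other (SD 39.3) than the wild-type libraries (SD 165.8). The estimate was -0.34 (SE 0.10), with an adjusted limma-trend p of 0.247. Its exons share 774 bases with Ctsb on the opposite strand, and 10.9% of its 50-base stretches also occur in Gm6781.

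Sqle and Lss close the sterol ring. Sqle, squalene epoxidase, a rate-limiting step, had 1426.3, 1534.5, 1474.9 and 1565.4 normalized counts in wild type and 1399.1, 1275.6, 1394.7 and 1404.5 in libraries 5 to 8. The groups did not overlap, but wild-type library 1 and heterozygote-labelled library 8 were close. The estimate was -0.13, with a 95% interval of -0.32 to 0.05. Lss, lanosterol synthase, had means of 748.5 ± 70.8 and 703.1 ± 71.1 normalized counts (SD, n = 4 each) and an estimate of -0.09 (95% interval -0.34 to 0.16).

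After lanosterol, the demethylating enzymes Cyp51 and Msmo1 were both lower. Cyp51, lanosterol demethylase (mm10 chr5:4081145-4104746, minus strand), had 2092.0, 1889.4, 1927.7 and 2214.0 normalized counts in wild type. Libraries 5 to 8 had 1482.7, 1606.7, 1612.4 and 1448.6, all below every wild-type library. The estimate was -0.40 (SE 0.09), and the adjusted limma-trend p of 0.162 was the smallest among the members.

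Msmo1, methylsterol monooxygenase, acts on the product of that route (mm10 chr8:64718139-64733792, minus strand). It had 2230.9, 1932.8, 1715.0 and 1997.8 normalized counts in wild type and 1664.1, 1418.5, 1465.4 and 1501.1 in libraries 5 to 8. The groups did not overlap, with wild-type library 3 the nearest to heterozygote-labelled library 5. The estimate was -0.38 (SE 0.10), with an adjusted limma-trend p of 0.222. Cyp51 and Msmo1 each had an unadjusted p under 0.05 in all 18 alternatives tried, as did Hmgcs1, Fdps, Fdft1 and Elovl1.

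The partners of Msmo1 in removing the methyl groups had positive estimates. Hsd17b7, the sterol ketoreductase (mm10 chr1:169949535-169969241, minus strand), had 559.3, 781.5, 929.5 and 675.2 normalized counts in wild type and 895.0, 767.6, 1014.9 and 1178.6 in libraries 5 to 8. The groups overlapped, with heterozygote-labelled library 8 highest and wild-type library 1 lowest. The estimate was 0.40 (SE 0.17), with an adjusted limma-trend p of 0.333. Nsdhl, the sterol decarboxylase, had 363.4 ± 72.0 and 397.1 ± 59.3 (SD, n = 4 each), an estimate of 0.14 with a 95% interval of -0.24 to 0.52. The Hsd17b7 promoter is shown because its estimate was positive in a pathway where most were negative; capitals mark 2 of its 3 ATTGG boxes (GRCm38.p6 chr1:169969242-169969455, minus strand). The 36 bases next to the start lie within a GENCODE transcript and are left out.
Hsd17b7: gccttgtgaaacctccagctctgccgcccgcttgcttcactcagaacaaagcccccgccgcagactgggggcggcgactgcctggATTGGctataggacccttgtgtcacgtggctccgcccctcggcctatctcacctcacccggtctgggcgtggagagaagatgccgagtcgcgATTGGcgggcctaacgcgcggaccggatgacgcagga

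The other enzymes after lanosterol, Dhcr7, Tm7sf2, Ebp and Sc5d, overlapped between the groups and had negative estimates. Dhcr7, the final sterol reductase, had 670.9, 482.6, 583.0 and 432.4 normalized counts in wild type and 540.9, 474.0, 378.8 and 478.2 in libraries 5 to 8, with the groups overlapping widely. Its estimate was -0.20, with a 95% interval of -0.56 to 0.15. Tm7sf2, a sterol reductase, had 210.8 ± 18.01 and 185.5 ± 30.9 (SD, n = 4 each), an estimate of -0.19. Ebp, the sterol isomerase, had 452.9 ± 56.1 and 435.2 ± 67.1, an estimate of -0.06, and Sc5d, the sterol desaturase, had 887.9 ± 51.5 and 876.6 ± 86.5, an estimate of -0.02. The 95% intervals of these 3 include 0.

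**Figure D2:**
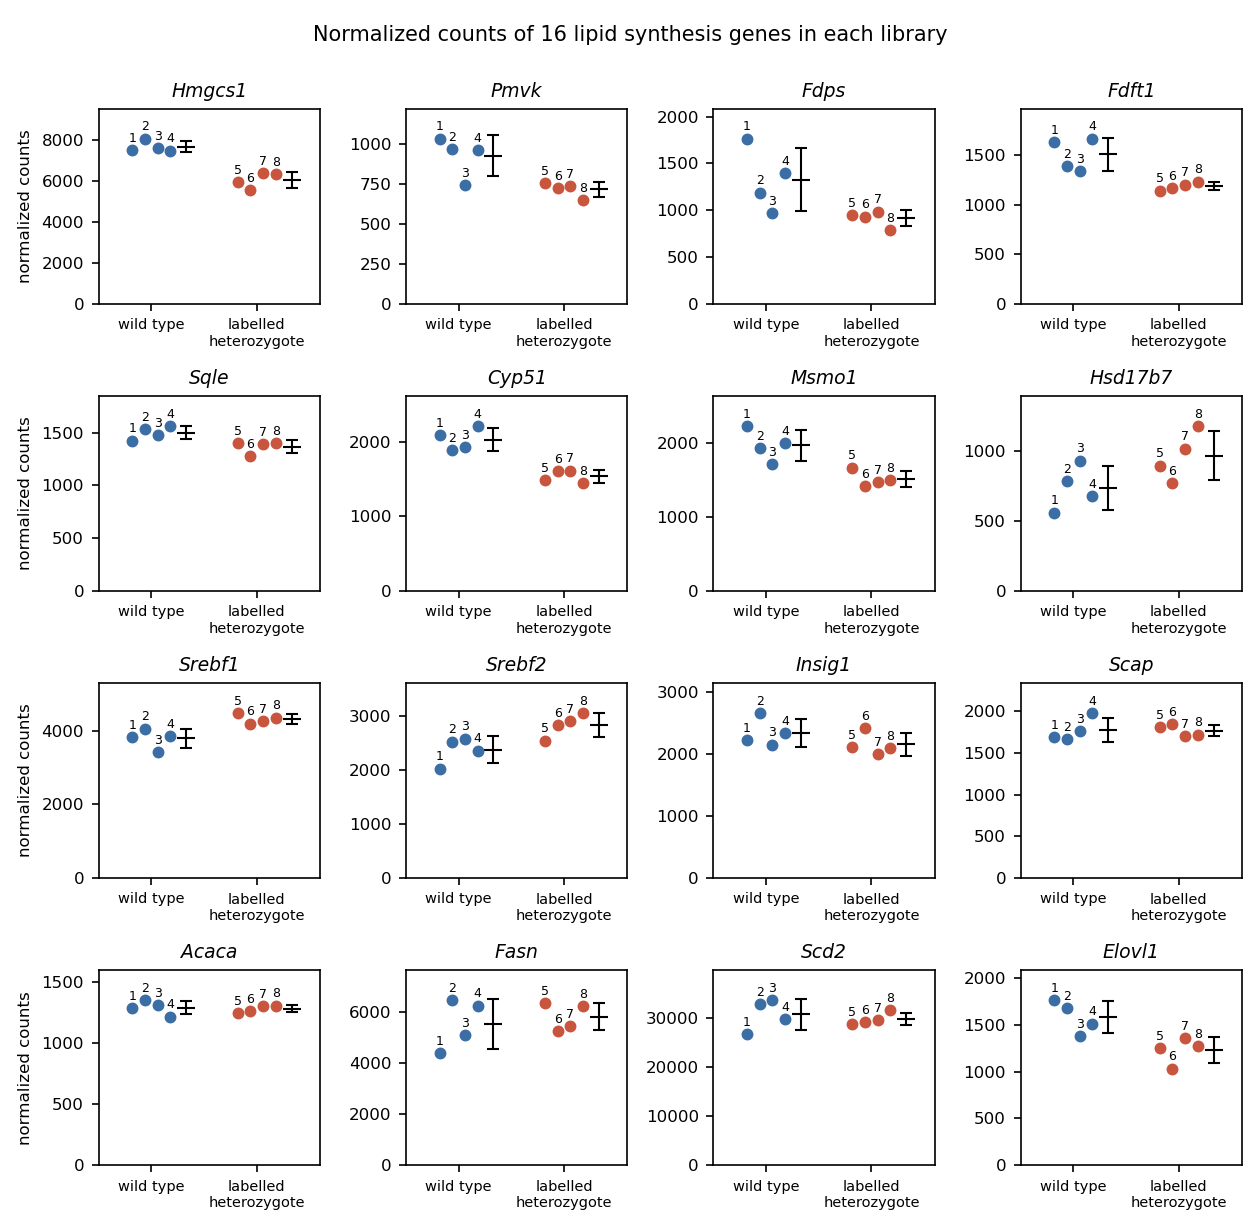
Normalized counts (vertical axis, from 0) of 16 genes in each library, with wild-type libraries 1 to 4 in blue, heterozygote-labelled libraries 5 to 8 in red, and bars for the mean and SD (n = 4). Hmgcs1, Fdft1, Cyp51, Msmo1, Sqle and Elovl1 are lower in every heterozygote-labelled library than in any wild-type library, Srebf1 is higher in every one, and Acaca and Scap overlap.

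Among the regulators, the genes of both SREBPs had higher means in the libraries labelled heterozygote. Srebf2, whose product mainly drives sterol genes (mm10 chr15:82147181-82205379, plus strand), had 2027.1, 2525.7, 2581.2 and 2356.5 normalized counts in wild type. Libraries 5 to 8 had 2545.0, 2833.5, 2898.8 and 3055.7, and the groups overlapped through heterozygote-labelled library 5 and wild-type library 3. The estimate was 0.26 (SE 0.10), with an adjusted limma-trend p of 0.306. Part of the Srebf2 promoter is shown since its estimate and those of most sterol enzymes had opposite signs; capitals mark a single ATTGG (GRCm38.p6 chr15:82147019-82147180, plus strand). The 88 bases next to the start lie within a GENCODE transcript and are left out.
Srebf2: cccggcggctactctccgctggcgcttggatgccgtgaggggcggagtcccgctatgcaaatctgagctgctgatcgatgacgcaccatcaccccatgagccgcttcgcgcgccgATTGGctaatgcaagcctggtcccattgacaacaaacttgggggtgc

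Srebf1, whose product mainly drives fatty acid genes (mm10 chr11:60199089-60222581, minus strand), had 3832.4, 4064.9, 3418.1 and 3859.2 normalized counts in wild type. Libraries 5 to 8 had 4487.2, 4200.9, 4256.7 and 4361.8, all above every wild-type library. The estimate was 0.19 (SE 0.08), with an adjusted limma-trend p of 0.341. These 2 positive estimates were smaller after correction for transcript length, at 0.12 for Srebf1 and 0.15 for Srebf2, with unadjusted limma-trend p of 0.179 and 0.0776. That of Hsd17b7 was 0.31 with an unadjusted limma-trend p of 0.0607, so no member was higher at an unadjusted p under 0.05 under that correction. With heterozygote-labelled library 7 or 8 left out, 0 members were higher at that level. With wild-type library 4 or the 2 libraries low in Xist left out, Srebf2 alone was, and with wild-type library 1 left out, Srebf1 alone.

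The genes of the proteins that hold or escort the SREBPs had RNA levels that overlapped between the groups. Scap, the escort, had 1688.4, 1664.6, 1764.5 and 1980.9 normalized counts in wild type and 1809.6, 1843.7, 1704.8 and 1719.5 in libraries 5 to 8. The groups overlapped fully, and the estimate of -0.002 had a 95% interval of -0.20 to 0.19. Insig1, an endoplasmic reticulum anchor that is itself an SREBP target, had 2225.7, 2660.6, 2149.5 and 2339.6 in wild type and 2110.5, 2419.6, 1995.0 and 2095.5 in libraries 5 to 8. Its estimate was -0.12, with a 95% interval of -0.33 to 0.09. The related Insig2 had 1123.28 ± 135.1 and 1055.32 ± 81.2 (SD, n = 4 each), an estimate of -0.09. Stard4, a cytosolic sterol carrier, had 686.6 ± 88.5 and 607.1 ± 41.4, an estimate of -0.17 with a 95% interval of -0.44 to 0.10.

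The entry into fatty acid synthesis differed little between the groups. Acly, which releases acetyl-CoA from citrate for both pathways, had 3562.4, 4207.7, 4844.4 and 3853.0 normalized counts in wild type and 4428.5, 4314.0, 4230.3 and 4520.2 in libraries 5 to 8. The heterozygote-labelled libraries lay within the wild-type range, and the estimate of 0.10 had a 95% interval of -0.12 to 0.32.

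Acaca, the acetyl-CoA carboxylase that makes malonyl-CoA, had 1283.5, 1349.2, 1307.1 and 1213.9 normalized counts in wild type and 1244.8, 1259.9, 1301.4 and 1303.3 in libraries 5 to 8. The groups overlapped, and the coefficient of variation of 2.31% in the labelled heterozygotes was the smallest of the 35 members there. The estimate was -0.01, with a 95% interval of -0.20 to 0.17. Its counts are uncertain, since 52.6% of its 50-base stretches also occur in Gm5182.

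Fasn, fatty acid synthase, had 4389.1, 6478.0, 5105.6 and 6254.3 normalized counts in wild type and 6350.0, 5267.0, 5462.0 and 6237.9 in libraries 5 to 8. Each group had 2 higher and 2 lower libraries, and the estimate of 0.08 had a 95% interval of -0.20 to 0.36. After the correction for transcript length, Acaca and Fasn, with the longest transcripts of the set at 9513 and 10050 bases, had estimates of -0.26 and -0.17, with unadjusted limma-trend p of 0.0233 and 0.173.

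The desaturases were abundant in both groups. Scd2, the main stearoyl-CoA desaturase of neural tissue, had 26658.8, 32792.8, 33653.6 and 29753.6 normalized counts in wild type and 28766.8, 29211.4, 29616.3 and 31541.8 in libraries 5 to 8. The heterozygote-labelled values lay inside the wild-type range, and the estimate of -0.04 had a 95% interval of -0.29 to 0.21. Its neighbour on chromosome 19, Scd1, had 7433.5, 9527.2, 6941.1 and 8003.7 in wild type and 6212.7, 7286.4, 7539.7 and 7424.8 in libraries 5 to 8. The groups overlapped, with an estimate of -0.16 and a 95% interval of -0.41 to 0.09. Fads1 and Fads2 desaturate polyunsaturated fatty acids. Fads1 had 2696.72 ± 133.5 and 2774.58 ± 375.5 (SD, n = 4 each), an estimate of 0.03, and Fads2 had 1487.5 ± 175.4 and 1605.15 ± 134.3, an estimate of 0.11.

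Elovl1, an elongase that makes the saturated and monounsaturated very long chains of sphingolipids, had the lowest estimate of the fatty acid genes (mm10 chr4:118428093-118432953, plus strand). It had 1765.0, 1678.9, 1377.7 and 1511.0 normalized counts in wild type and 1249.2, 1030.7, 1358.9 and 1270.5 in libraries 5 to 8. The groups did not overlap, though wild-type library 3 and heterozygote-labelled library 7 were close. The estimate was -0.37 (SE 0.12), with an adjusted limma-trend p of 0.266. Elovl7, which acts on saturated chains, had 995.1 ± 158.7 and 897.2 ± 139.0 (SD, n = 4 each), an estimate of -0.15. Elovl5, which extends polyunsaturated chains, had 3054.65 ± 420.7 and 2969.28 ± 459.2, an estimate of -0.04. Elovl6, which extends palmitate, had 1016.35 ± 160.4 and 1013.72 ± 138.4, an estimate of -0.0005. The difference between Elovl1 and its relatives was not tested. The Elovl1 promoter is shown for comparison with the sterol genes; it held a single CCAAT box and no TCACNCCAC match (GRCm38.p6 chr4:118427843-118428092, plus strand).
Elovl1: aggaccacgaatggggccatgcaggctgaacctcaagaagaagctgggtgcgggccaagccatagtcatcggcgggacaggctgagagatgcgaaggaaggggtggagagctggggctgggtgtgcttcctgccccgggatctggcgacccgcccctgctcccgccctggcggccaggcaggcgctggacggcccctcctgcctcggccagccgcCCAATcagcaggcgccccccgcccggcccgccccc

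As a list, the 11 fatty acid genes had 7 negative and 4 positive estimates and a median of -0.01. After correction for transcript length the median was -0.16, and Acaca and Scd1 joined Elovl1 at an unadjusted p under 0.05. Under that correction 11 members were lower at an unadjusted p under 0.05, the others being Hmgcs1, Fdps, Fdft1, Sqle, Lss, Cyp51, Msmo1 and Stard4, against 7.1% of all genes, and 0 were higher, against 3.97% of all genes. The sterol median was -0.16 before and -0.18 after that correction. The sterol genes have a median transcript length of 2998 bases, the fatty acid genes of 4426 and all genes tested of 3405.

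Levels were then compared between members per kilobase of the longest annotated transcript. Scd2 stood first in wild type at 5630.56 ± 582.9 normalized counts per kilobase (SD, n = 4), followed by Hmgcs1 at 2211.22 ± 77.6 and Scd1 at 1650.74 ± 232.1, and the wild-type ranges of these 3 did not overlap. Elovl5, Acly, Srebf1, Elovl1 and Insig1 came next, from 1098.0 down to 869.1, and neighbours in that order overlapped. At the low end stood Lss at 107.1, Tm7sf2 at 68.4 and Idi1 at 54.5 normalized counts per kilobase. Among all genes the median was 135.4. The desaturases Scd1 and Scd2 and the synthase Hmgcs1 were thus the 3 most abundant members per length in both groups.

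**Figure D3:**
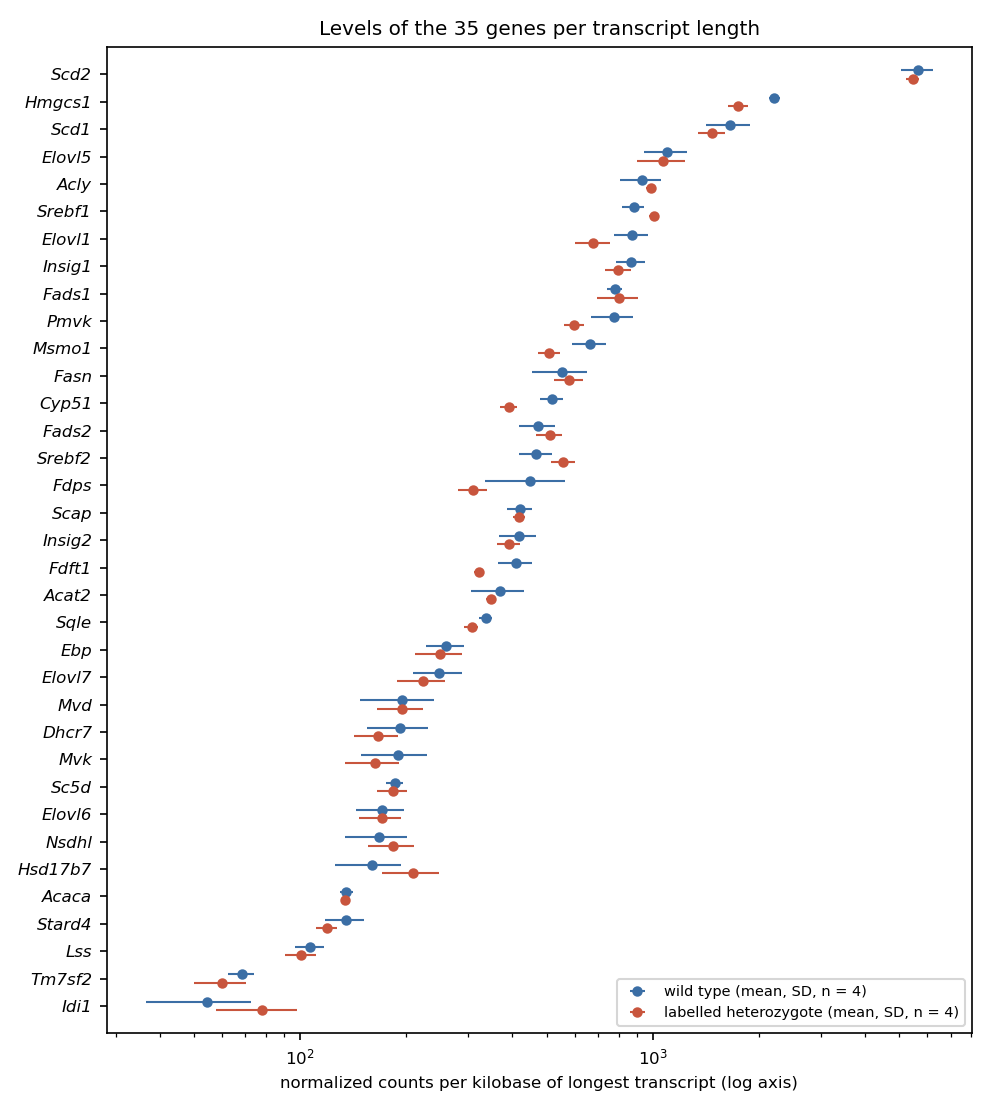
Normalized counts per kilobase of longest transcript (log axis) for the 35 genes, ordered by the wild-type mean, with mean and SD (n = 4) in blue for wild type and red for the labelled heterozygotes. Scd2 is highest at 5630.56 in wild type and Idi1 lowest at 54.5.

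The markers of other cell types were set beside these results. Of 16 oligodendrocyte markers, 14 were without overlap and lower in the labelled heterozygotes. The median estimate was -1.25, and 5 of these markers fell at an adjusted limma-trend p under 0.05. Over all genes tested, 3.86% were lower without overlap, and 0.0807% passed that adjusted p in either direction. Mbp, a myelin protein that Schwann cells also make, had means of 106328 normalized counts in wild type and 58530.9 in the labelled heterozygotes. For 8 astrocyte markers the sums were 23021.6 to 32630.4 and 12679.3 to 21124.0, with 3 without overlap, all lower, among them the most abundant, Gfap and Aldoc. Of 13 markers of myelinating Schwann cells, Pmp22 among the most abundant, 2 were without overlap, both lower, and the sums overlapped at 123532 to 157108 and 111731 to 154292. The 12 neuronal markers, led by Nefh and Nefm, held no gene without overlap. No marker of these 4 lists was at 0 in any library, and the part of astrocytes, Schwann cells and neurons in the results was not tested either.

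Within wild type, the median sterol and oligodendrocyte levels ranked the 4 libraries alike, with library 1 highest, then 4, 2 and 3. The sterol levels there were 0.17, 0.14, 0.10 and 0.02 and the oligodendrocyte levels 0.80, 0.67, 0.50 and 0.27, as median deviations on the log2 scale. The summed normalized counts did not rank them alike. Wild-type libraries 1 to 4 had sterol sums of 23369.5, 22971.8, 21555.3 and 22759 and oligodendrocyte sums of 287265, 237508, 215838 and 253031. Within the labelled heterozygotes the order of the medians differed, from library 5 through 7 and 8 to 6 for sterol enzymes and from 7 through 6 and 8 to 5 for oligodendrocyte markers. Library 5 had an oligodendrocyte level of -1.07 and a sterol level of -0.06. Libraries 1 and 5, the highest and the lowest in oligodendrocyte level, were also the 2 libraries low in Xist. Library 6 had an oligodendrocyte level of -0.37 and a sterol level of -0.12. The sterol medians were 0.02 to 0.17 in wild type and -0.12 to -0.06 in the labelled heterozygotes, without overlap. Library 5 also had the lowest level of the fatty acid genes, at -0.15.

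**Figure D4:**
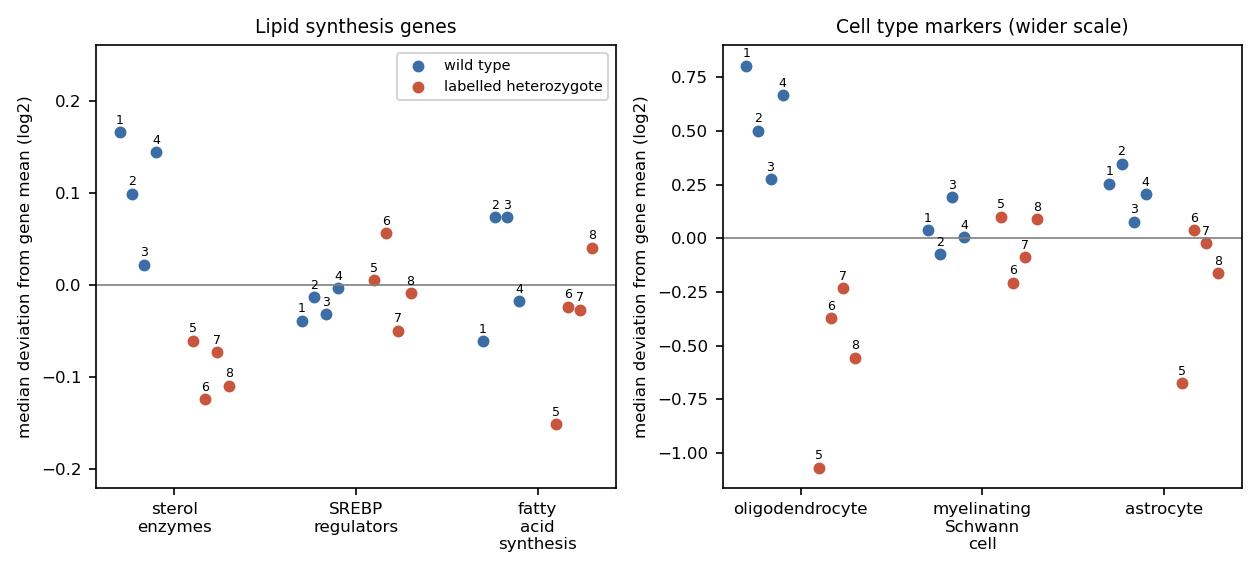
Median deviation of each gene list from its genes' means over all libraries (log2 scale), per library, for the 3 groups of lipid genes and, on a wider scale, 3 lists of cell type markers. The sterol enzymes and the oligodendrocyte markers both separate the groups. By this median, but not by summed normalized counts, they rank the wild-type libraries alike (1, 4, 2, 3). They rank the heterozygote-labelled libraries differently, with library 5 at -1.07 for oligodendrocytes and -0.06 for the sterol enzymes.

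For other cells, the 4 neutrophil markers in the table, led by Ltf and Ngp, were summed. The sums were 106.3 to 2346.4 normalized counts in wild type and 649.1 to 6030.2 in the labelled heterozygotes. Of these markers 3 were higher without overlap, against 3.4% of all genes tested. The upper end in wild type was library 1, where Ltf alone had 2176.4, and library 3 was next with a sum of 364.8. S100a8, S100a9 and Ngp, genes of neutrophil granules and cytoplasm, had mean ratios of 21.8, 19.8 and 20.5, with adjusted limma-trend p of 0.0763, 0.0920 and 0.0920. Of 9 adipocyte markers, cells with strong fatty acid synthesis, only Plin4 and Cidea were in the table, with sums of 186.9 to 403.0 and 254.5 to 534.1. Sums of the 7 erythroid markers, led by Hba-a1 and Hba-a2, ran from 10170.7 to 34445.3 and from 8543.0 to 29309.5, and sums of the 9 macrophage markers, led by Csf1r and C1qa, from 3945.2 to 6034.5 and from 3535.6 to 4776.0. The part of these cells was not tested.

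Other genes of the pathways were read from the same fit, in 5 lists of which no gene passed an adjusted p of 0.05. Of 10 partners in SREBP processing and degradation, 0 had an unadjusted limma-trend p under 0.05, against 14.1% of all genes tested. Mbtps2, a protease that cleaves the SREBPs, had an estimate of 0.24, Rnf139, a ubiquitin ligase, of -0.17, and Fbxw7, which marks the active fragments for destruction, of 0.12.

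The isoprenoid branch leaves the sterol route at farnesyl diphosphate. Of its 10 genes 2 were lower and 1 higher at an unadjusted limma-trend p under 0.05. These are 20% and 10% of the list, against 7.34% and 6.72% of all genes tested. Fnta and Fntb, the subunits of farnesyltransferase, had estimates of -0.27 and -0.26. Pggt1b, the beta subunit of the related transferase for the longer isoprenoid, had one of 0.67. After correction for transcript length the 2 lower genes remained under 0.05 and 0 were higher. For Fnta the groups did not overlap, at 2789.15 ± 252.5 and 2302.47 ± 145.6 normalized counts (SD, n = 4 each).

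Of 19 genes that move or store cholesterol, 12 had positive estimates, with a median of 0.08. At an unadjusted limma-trend p under 0.05, 5 were higher and 2 lower, 26.3% and 10.5% of the list, against 6.72% and 7.34% of all genes tested. After correction for transcript length 1 was higher, Mylip, named after its values were seen, and 2 were lower. Lrp1, a large endocytic receptor for lipoproteins, had 8512.6 ± 659.7 normalized counts in wild type and 11347.8 ± 1210.1 in the labelled heterozygotes (SD, n = 4 each), without overlap. Its estimate was 0.41, with an adjusted limma-trend p of 0.214, and 0.09 after correction for transcript length. Soat1, which esterifies cholesterol for storage, had an estimate of 0.33, also without overlap, and 0.11 after that correction. Cyp27a1, the mitochondrial sterol hydroxylase, had 415.3 ± 71.4 and 247.4 ± 60.4 (SD, n = 4 each). Its estimate was -0.76, with an adjusted limma-trend p of 0.220, and -0.67 after that correction.

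In the activation and elongation of fatty acids, 28 of 30 listed genes were tested and 2 were lower at an unadjusted limma-trend p under 0.05. Their share of 7.14% was close to the 7.34% of all genes tested. Fabp7, a fatty acid binding protein of immature and astroglial cells, had an estimate of -1.20 without overlap and an adjusted limma-trend p of 0.110. Acsbg1, an acyl-CoA synthetase found in astrocytes, had one of -0.81, and Slc25a1, which exports citrate from mitochondria for Acly, one of -0.22. Of 13 genes of fatty acid oxidation, 1 was higher and 1 lower at that level, 7.69% each. Over all genes tested the shares were 6.72% and 7.34%, close to those of this list. Cpt1a, which admits acyl chains to mitochondria, had an estimate of 0.30 without overlap, Hadh one of -0.30 and Acadvl one of -0.20. After correction for transcript length Hadh remained under 0.05 and Cpt1a, at 0.23 with an unadjusted limma-trend p of 0.0630, did not.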

How the data were processed

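Poly(A) RNA of dissected auditory nerves was sequenced from directional libraries, per the labels' protocols, and the submitters' processing notes name STAR, Partek, DESeq2 and mm10 without roles. Signal values in the deposited table, 1 column for each library, are gene counts over a size factor, as judged from the values. Its other columns hold the authors' comparison, per the file headers: ratio, log2 ratio, p-value, FDR and a signed fold score, of which only the FDR is reported. Annotation and counting method are not given in the sources used here. The value of 1 read was the step of which 89.3% to 92.3% of values under 1000 were whole multiples within 0.06. These were too few to recover reads exactly, so a count model was not the main test. Limma-voom, an alternative, used estimated reads, rounded from this step.

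The 14870 genes that reached 10 normalized counts in 4 or more libraries were fitted as log2(value + 1) with limma-trend on all 8 libraries, with Benjamini-Hochberg adjustment over all of them. This scale understates changes of low genes. Single genes also had a two-sided exact permutation test. Lists are described by counts and medians without a test. The members, lists and tests were chosen with earlier results of these data known. Every member was named, with values per library for those at an unadjusted p under 0.05 and for a fixed set of regulators and key enzymes; of each other pathway list, the 3 with the smallest p were named, and of each marker list the 2 with the highest mean, of which some are not reported here. Gene positions and transcript lengths came from GENCODE M21 (mm10), and promoters from RefSeq. The fit was tested on simulated data, in which the changes were larger than the estimate of any member. Recovery of differences as small as those of the members was not tested. R 4.3.3, limma 3.58.1, Python 3.11.15, numpy 2.4.6, matplotlib 3.10.9 and pandas 2.3.3 served throughout. Alternatives were pseudocounts of 0.1 and 10, other filters, scalings and a length correction (loess, span 0.5), limma-voom, low Xist as a covariate or left out, and each library left out.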

Additional observations from a re-analysis of the deposited data

Results flagged for a closer look

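Of 70 groups of 4 values (35 members in 2 groups), 1 had a library far from the other 3, where chance gives 3.5. It was Sqle in the labelled heterozygotes, where library 6 had 1275.6 normalized counts against 1394.7 to 1404.5 in the others, a gap of 0.924 of the group's range. Library 6 also had the lowest sterol level of its group. Without it the log2 fold change of Sqle was -0.10.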

How the results depend on the processing

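No paired analysis was possible because the replicate numbers are not shared between the groups. Over 18 alternatives, 595 of 630 member values kept their sign and their side of an adjusted p of 0.05, 34 changed sign and 1 passed, and 24 members never changed sign. The 7 lower members at an unadjusted p under 0.05 were the same in every alternative except the length correction, which gave 11 without Pmvk. That correction also gave 0 higher members, 30 genes called over the whole table against 12, and a fatty acid median of -0.16; quantile normalization gave 7 genes. Without the libraries low in Xist, 1 member was higher. Leaving out each library in turn gave 0 to 221 genes called (0 without wild-type library 2 or 4 or heterozygote-labelled library 8, 221 without wild-type library 3), 0 to 1 members called, 0 to 4 members higher, and a regulator median of -0.064 to -0.0087. Estimates near 0 changed sign. Under limma-voom they were -0.0044 for Mvd, 0.017 for Scap, 0.0025 for Acaca and 0.019 for Elovl6. With the length correction they were 0.047 for Ebp and -0.17 for Fasn. Without the libraries low in Xist they were 0.038 for Acat2, -0.21 for Mvd, 0.035 for Ebp, -0.068 for Fasn, 0.062 for Elovl5 and 0.046 for Elovl6. Leaving out single libraries gave ranges of -0.15 to 0.041 for Acat2, -0.15 to 0.13 for Mvd, -0.069 to 0.041 for Sc5d, -0.031 to 0.052 for Scap, -0.040 to 0.011 for Acaca, -0.026 to 0.16 for Fasn, -0.11 to 0.0066 for Scd2, -0.023 to 0.13 for Fads1, -0.14 to 0.022 for Elovl5 and -0.087 to 0.098 for Elovl6. All member values lay far above 3 reads. The width of the intervals came from the spread between mice together with the spread that limma-trend fits over all genes. The cause of the length dependence was not tested.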

Other observations

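The members varied less within the labelled heterozygotes than within wild type. The coefficient of variation was smaller in the labelled heterozygotes for 26 of the 35 members, with a median of 8.59% against 12.0% in wild type (n = 4 each). The range was 2.31% to 25.8% in the labelled heterozygotes and 3.51% to 32.8% in wild type. The difference in spread was not tested. It was not computed over all genes, so it cannot be called particular to these members.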
